A study of Macaca fascicularis with 6 samples.

Results

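Metaphase II (MII) oocytes of the cynomolgus monkey (Macaca fascicularis) that had matured in culture (IVM MII, in vitro matured) were compared with MII oocytes that had matured in the animal (IVO MII, in vivo matured), across all genes. The comparison uses 4 of the 6 RNA sequencing libraries of the series, 2 per group, chosen by the group named in the labels. The other 2 libraries come from germinal vesicle (GV) oocytes, the immature stage before meiosis resumes, and serve here only to place the levels and to share in the estimate of the spread. All 3 groups were labelled wild type, untreated and stripped oocytes. Animal age, the number of oocytes and animals behind a library, the culture medium, and how the in vivo oocytes were obtained are not stated in the sources used here. The p-values therefore measure the spread between these libraries, which may be technical.

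An oocyte resuming meiosis transcribes little or nothing until the embryonic genome is activated. It works from mRNA stored during growth, which is kept with short poly(A) tails, translated when the tails are extended, and removed when they are lost. Maturation from GV to MII includes breakdown of the nucleus, extrusion of the first polar body and arrest on the second meiotic spindle, and it is accompanied by selective decay of stored mRNA. Cytoplasmic changes in the same period affect mitochondria, endoplasmic reticulum and the cell cortex. Reverse transcription started from the poly(A) tail, so the level of a gene is its share of the poly(A)-primed RNA of that library. Tail length and the RNA content of an oocyte were not measured, and fewer cells of a type and less RNA per cell cannot be told apart.

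Levels are CPM, the counts of a gene scaled to library size with TMM factors. Where 2 values are joined by "and", they are replicates 1 and 2 of a group (n = 2 libraries). Libraries are called as in the labels, such as IVM MII-2. A log2 fold change is IVM MII minus IVO MII, and the value after ± is its standard error. A gene is called higher or lower when its adjusted p is under 0.05, and a call is termed stable when it held without each of the 6 libraries in turn, with a log2 fold change within 0.58 of that of the full fit, and with both other scalings. The 4 MII libraries had totals within the 27707021 to 35515139 counts of the series, and log2 CPM correlated across genes at 0.979 within IVM MII, 0.975 within IVO MII and 0.930 to 0.936 between the groups. These correlations describe libraries over genes, which are not independent replicates. Oocyte transcripts were high in all 4 MII libraries, where the 36 landmark oocyte genes in the table summed to 45253 and 51809.7 CPM in IVM MII, against 58595 and 62527 CPM in IVO MII.

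Of 15815 genes tested, 3895 differed between the 2 kinds of MII oocyte, which is 24.6% of the genes tested. IVM MII was higher in 2260 genes (14.3%) and lower in 1635 genes (10.3%). The higher genes had a median log2 fold change of 1.51 and the lower genes one of -1.23, while the median over all genes tested was 0.02. A change of more than 4-fold was found for 667 higher and 359 lower genes, and one of more than 8-fold for 274 and 173. Both libraries of 1 group lay above both of the other for 2259 of the 2260 higher genes and all 1635 lower genes, against 63% of all genes tested. The call was stable for 897 of the higher genes (39.7%) and 410 of the lower genes (25.1%). In the fits with 1 library left out, the number of higher genes was lowest without IVM MII-2, at 1327, and so was the number of lower genes, at 753; without IVM MII-1 the lower genes numbered 895. None of the 3895 called genes took the opposite sign in any alternative fit.

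The balance between higher and lower calls depended on the scaling. Of the called genes, 58.0% were higher with TMM factors, 51.6% with RLE factors, 49.6% by DESeq2, 48.7% with the trend over gene length removed, and 75.8% with library totals. Library totals moved the median of all genes tested from 0.02 to 0.24, so statements on direction are relative to a centre that the scaling sets. Where another scaling or the removal of the length trend evened or turned the balance in a gene list, the higher and lower counts it gave follow in brackets.

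**Figure D1:**
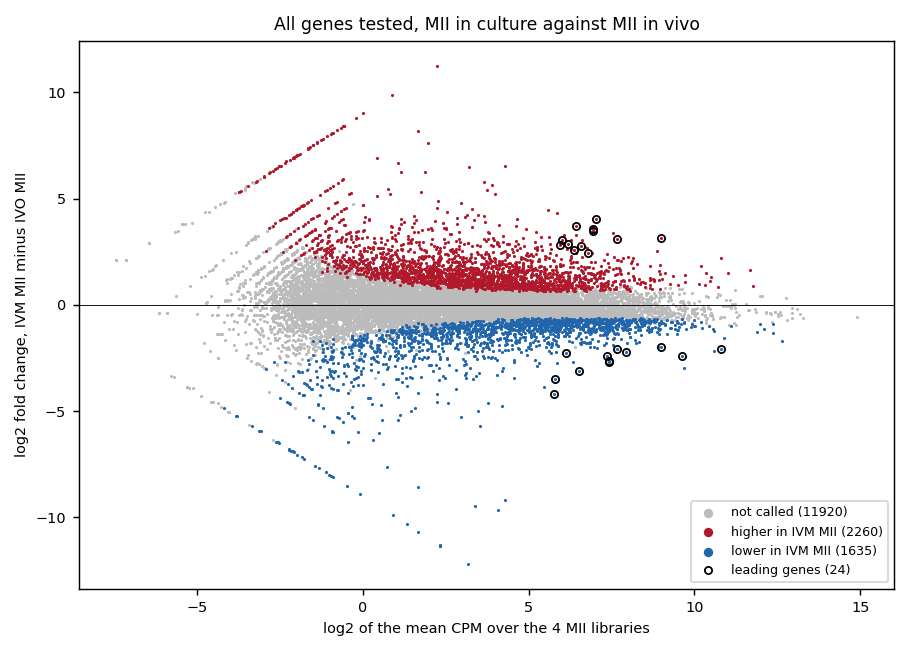
Log2 fold change of IVM MII minus IVO MII (vertical axis) against the log2 of the mean CPM over the 4 MII libraries (horizontal axis) for each gene tested. Red points are the 2260 higher and blue points the 1635 lower genes, and open circles mark the 24 leading genes. The straight lines of points at the far left belong to genes with few or no counts in 1 group, whose fitted fold change is no measure of size.

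The called genes also made up different parts of the libraries. The higher genes held 14.5% and 14.8% of the counts of tested genes in IVM MII, against 4.70% and 5.43% in IVO MII, with 17.6% and 17.9% in GV. The lower genes held 12.2% and 10.8% in IVM MII, against 21.2% and 21.5% in IVO MII, with 13.2% and 14.0% in GV. For both sets the IVM MII share thus lay nearer to that of GV than the IVO MII share did. Since these sets were chosen by the same contrast, the MII shares are a description. Of the called genes, 992 of the higher set and 548 of the lower set stayed below 10 CPM in the higher group.

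The 12 leading higher genes were the largest stable changes among genes that carry a symbol and reach 100 CPM in IVM MII. CNTNAP5, a neurexin-like adhesion protein (macFas5 chromosome 12, 6977152 to 7839387), stood at 214 and 281 CPM in IVM MII, against 16.8 and 13.7 CPM in IVO MII. It was 16.2-fold higher in IVM MII (log2 fold change 4.02 ± 0.26, adjusted p = 5.25e-06), and GV libraries held only 10.01 and 11.9 CPM. GALNT5, an enzyme that starts mucin-type O-glycosylation (chromosome 12, 46024017 to 46081391), stood at 147 and 174 CPM in IVM MII, against 11.8 and 13.1 CPM in IVO MII (log2 fold change 3.69 ± 0.24, adjusted p = 5.25e-06), with 5.89 and 6.16 CPM in GV. Both genes were thus low in GV and in vivo and high in the cultured oocytes, with no overlap. GRIN2A, a subunit of the NMDA-type glutamate receptor (chromosome 20, 10061738 to 10492150), read 219 and 235 against 17.9 and 20.4 CPM (log2 fold change 3.57 ± 0.23, adjusted p = 5.25e-06). SULT2A1, a steroid sulfotransferase named by the rule on GV placement, had the order of CNTNAP5, with 12.1 and 7.85 CPM in GV, 107 and 101 in IVM MII oocytes and 32.9 and 24.2 in IVO MII (log2 fold change 1.87 ± 0.26, adjusted p = 5.31e-04).

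Several leading genes had their lowest levels in the in vivo oocytes and not in GV. MYCBP, a binding partner of the transcription factor MYC (chromosome 1, 188952584 to 188962143), read 464 and 452 CPM in GV, 215 and 234 in IVM MII oocytes and 19.7 and 20.2 in IVO MII. Its difference between the MII groups was 11.2-fold (log2 fold change 3.49 ± 0.23, adjusted p = 5.25e-06). POLR2J, a subunit of RNA polymerase II, had 80.4 and 84.3 CPM in GV and 105 and 110.2 against 11.98 and 18.3 CPM in IVM MII against IVO MII (log2 fold change 2.83 ± 0.25, adjusted p = 3.35e-05). Its near-identical copies in primates make the assignment of its reads uncertain. NDUFA7, an accessory subunit of respiratory complex I, had 153 and 172 CPM in GV and 161 and 169.9 against 20.7 and 27.7 CPM in the same order (log2 fold change 2.77 ± 0.24, adjusted p = 2.57e-05). The IVM MII libraries of NDUFA7 lay within the GV range and the IVO MII libraries far below it.

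The other leading higher genes were TEX30, ZNF746, DPYSL2, BET1, EEF1AKMT1 and LDHC. TEX30 read 767 and 1053 CPM in IVM MII, against 72.1 and 131 CPM in IVO MII, but 18.04% of its exon bases are shared with another gene. ZNF746, a zinc finger repressor, read 371 and 362 against 39.2 and 47.1 CPM, and DPYSL2, which binds tubulin in growing neurites, 108 and 124 against 15.00 and 13.05 CPM. These 3 genes had log2 fold changes of 3.16 ± 0.33, 3.08 ± 0.26 and 3.05 ± 0.23. BET1, a SNARE protein of transport between endoplasmic reticulum and Golgi, read 108 and 149 against 16.2 and 19.1 CPM (log2 fold change 2.86 ± 0.25, adjusted p = 2.63e-05). EEF1AKMT1, a methyltransferase of translation elongation factor 1A, read 116 and 169.5 against 22.2 and 24.8 CPM (log2 fold change 2.60 ± 0.25, adjusted p = 5.04e-05). LDHC, the germ cell form of lactate dehydrogenase, read 165 and 208 against 33.5 and 35.7 CPM (log2 fold change 2.43 ± 0.23, adjusted p = 4.52e-05), and it was listed by gene identifier and named from the gene table. In each of the 12 genes the lowest IVM MII library was above the highest IVO MII library, as the rule for naming required.

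The 12 leading lower genes were led by UBXN8, which tethers the ATPase VCP to the endoplasmic reticulum (chromosome 8, 31334964 to 31359562). UBXN8 stood at 5.903 and 5.34 CPM in IVM MII, against 88.6 and 119 CPM in IVO MII, and GV libraries held 38.1 and 32.4 CPM, between the MII groups. FAM111B, a protease (chromosome 14, 14861882 to 14885232), stood at 7.25 and 10.9 CPM in IVM MII, against 115 and 88.5 CPM in IVO MII, and CYP2C93, a cytochrome P450 (chromosome 9, 93646380 to 93675209), at 17.9 and 20.1 CPM in IVM MII, against 194 and 135 CPM in IVO MII. The log2 fold changes were -4.21 ± 0.26, -3.49 ± 0.29 and -3.11 ± 0.25, with adjusted p of 5.25e-06, 2.00e-05 and 1.97e-05. In FAM111B the GV libraries, at 89.3 and 69.3 CPM, overlapped IVO MII, so the cultured oocytes alone were low. CYP2C93 belongs to a family of close copies, between which reads may be split.

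PFN1 and NECAP2 were higher in vivo than in either other group. PFN1, or profilin, which feeds actin monomers to growing filaments, read 78.7 and 75.99 CPM in GV, 57.6 and 34.2 in IVM MII oocytes and 234 and 357 in IVO MII (log2 fold change -2.69 ± 0.30, adjusted p = 1.24e-04). NECAP2, an adaptor of clathrin-mediated endocytosis, read 73.4 and 86.5, 58.1 and 45.8 and 227 and 328 CPM in the same order (log2 fold change -2.42 ± 0.26, adjusted p = 9.08e-05). PARP12, an ADP-ribosyltransferase, and LRRC17, a secreted leucine-rich repeat protein, stayed at GV levels in culture. PARP12 read 117 and 88.5 CPM in GV and 101 and 72.5 against 399 and 414 CPM in IVM MII against IVO MII (log2 fold change -2.23 ± 0.25, adjusted p = 1.36e-04). LRRC17 read 36.4 and 24.8 CPM in GV and 22.1 and 25.6 against 108 and 125 CPM (log2 fold change -2.29 ± 0.25, adjusted p = 1.08e-04).

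C5H4orf27, the gene also known as HPF1, a partner of PARP1 in serine ADP-ribosylation, read 571 and 807 CPM in IVM MII, against 2971 and 2817 CPM in IVO MII (log2 fold change -2.07 ± 0.28, adjusted p = 4.03e-04), with 2440.1 and 2836 CPM in GV. CCDC50, a ubiquitin-binding protein, read 196 and 219 CPM in IVM MII, against 804 and 829 CPM in IVO MII (log2 fold change -1.98 ± 0.24, adjusted p = 2.26e-04), with 642 and 828 CPM in GV. For both genes the IVO MII libraries lay at or near the GV level and the IVM MII libraries at a fraction of it. AKR1C8, an aldo-keto reductase with close paralogs, read 245 and 253 CPM in IVM MII, against 1460.0 and 1185 CPM in IVO MII (log2 fold change -2.41 ± 0.25, adjusted p = 7.72e-05). KAT2A, a histone acetyltransferase, read 52.2 and 43.6 against 314 and 276 CPM, and MAP1B, a microtubule-associated protein, 72.2 and 83.03 against 416 and 239 CPM, with log2 fold changes of -2.62 ± 0.24 and -2.08 ± 0.28.

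**Figure D2:**
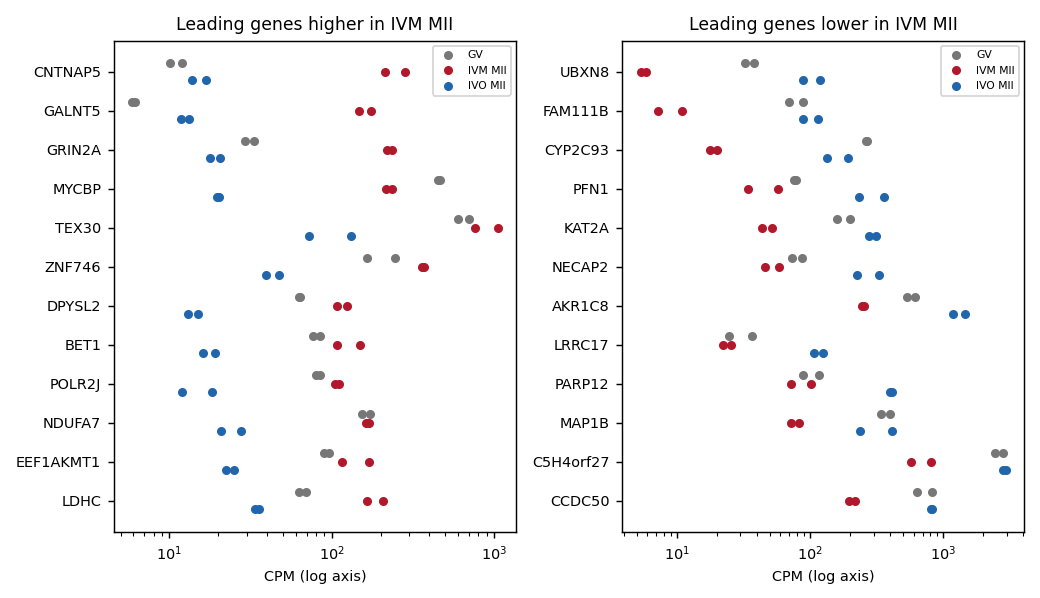
CPM of each library on a log axis for the 12 leading higher genes (left panel) and the 12 leading lower genes (right panel), ordered by log2 fold change, with GV in grey, IVM MII in red and IVO MII in blue. The 2 red points lie above the 2 blue points in every row on the left and below them in every row on the right, and the position of the grey points differs from gene to gene.

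Among the gene lists, respiratory complex I had the largest share of higher genes among those with at least 10 genes tested. Complex I is the first enzyme of the mitochondrial respiratory chain and is built from mitochondrially and nuclear-encoded subunits; transcripts of the mitochondrial genome were not analysed here. Of the 45 complex I and assembly factor genes tested, 23 (13 without IVM MII-2) were higher and 0 lower, or 51.1% higher against 14.3% of all genes. The median log2 fold change was 0.88 against 0.02 over all genes, and 0.57 with 16 higher and 1 lower when the trend over gene length was removed. By subunit family, 8 of 13 NDUFA genes, 6 of 11 NDUFB genes and 3 of 8 NDUFS genes were higher, and 3 of 7 assembly factors. NDUFB5 read 88.2 and 116 against 21.3 and 24.2 CPM in IVM MII against IVO MII (log2 fold change 2.17 ± 0.23, adjusted p = 9.08e-05). The assembly factor NDUFAF1 read 173 and 237 against 38.5 and 64.2 CPM (log2 fold change 2.00 ± 0.30, adjusted p = 7.88e-04), with 56.01 and 81.98 CPM in GV. Both were above GV in culture, while in vivo NDUFB5 lay below GV, at 60.2 and 58.1 CPM, and NDUFAF1 overlapped it. NDUFA1 read 22.7 and 28.02 against 2.05 and 2.82 CPM (log2 fold change 3.37 ± 0.27, adjusted p = 1.78e-05), but 43.1% of its exon bases are shared with another gene and reads there were not assigned by strand.

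Complexes II to V were tested as a second list, with 25.6% of genes higher and 2.33% lower, against 14.3% and 10.3% of all genes. Of 43 genes tested, 11 (7 without IVM MII-2) were higher and 1 lower, with a median of 0.41. The higher genes lay mainly in complex IV, or cytochrome c oxidase, with 7 of 13 genes, against 0 of 4 in complex II, 1 of 9 in complex III and 3 of 16 in the ATP synthase; a difference between complexes was not tested. COX6C, a subunit of complex IV, read 2665 and 2575 CPM in GV, 348 and 517 in IVM MII oocytes and 108 and 116 in IVO MII (log2 fold change 1.95 ± 0.27, adjusted p = 4.82e-04). COX17, a copper chaperone of the same enzyme, read 130.3 and 133, 77.6 and 114 and 19.9 and 17.3 CPM (log2 fold change 2.37 ± 0.25, adjusted p = 8.51e-05). In both, the levels stepped down from GV to IVM MII to IVO MII. COX6B1 and the ATP synthase subunit ATP5L read 10.8 and 11.3 against 2.47 and 2.34 CPM and 10.2 and 11.7 against 2.43 and 2.99 CPM. Short genes such as these 4 can have processed pseudogenes that can take up their reads. ATP5S, a coupling factor of the ATP synthase and the only lower gene, read 15.1 and 20.7 against 47.4 and 52.04 CPM (log2 fold change -1.47 ± 0.24, adjusted p = 0.00113).

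**Figure D3:**
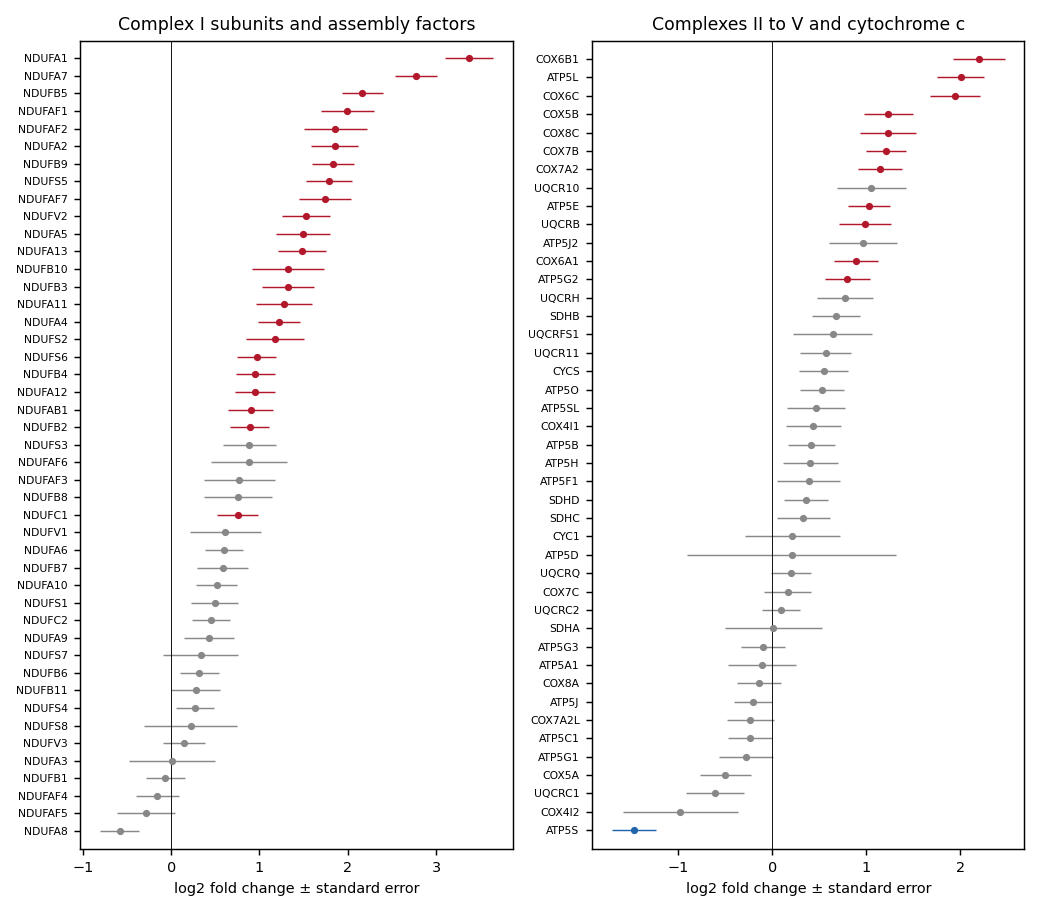
Log2 fold change of IVM MII minus IVO MII with its standard error (bars) for each tested gene of complex I and its assembly factors (left panel) and of complexes II to V and cytochrome c (right panel). Red marks genes called higher, blue the gene called lower (ATP5S) and grey genes not called. The left panel holds no blue point.

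Genes of the mitochondrial ribosome were mostly called higher where they were called. The shares were 34.2% higher and 1.37% lower, against 14.3% and 10.3% of all genes. Of 73 mitochondrial ribosomal protein genes, 25 (14 without IVM MII-2) were higher and 1 (2 without IVM MII-1) lower, with a median of 0.53 (0.26 with the length trend removed). The large subunit held 15 higher of 45 and the small subunit 10 of 28. MRPS28 read 114 and 160.4 against 31.6 and 35.9 CPM and MRPS36 42.2 and 64.2 against 14.1 and 13.4 CPM, with log2 fold changes of 2.02 ± 0.24 and 1.96 ± 0.26. Of 16 mitochondrial tRNA synthetases, 3 were higher and 0 lower, with a median of -0.02. The higher share was near the 14.3% of all genes. The higher synthetases were NARS2 at 53.6 and 56.1 against 19.8 and 23.9 CPM, WARS2 at 18.9 and 21.9 against 5.95 and 10.2 CPM and YARS2 at 216 and 217 against 56.8 and 86.7 CPM, the last sharing 20.3% of its exon bases with another gene. The cytosolic tryptophanyl-tRNA synthetase WARS went the other way, at 5.42 and 5.71 against 19.8 and 29.7 CPM (log2 fold change -2.15 ± 0.26, adjusted p = 2.06e-04).

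Import into mitochondria and the supply of fuel showed mixed calls. Of 21 genes of the import machinery, 4 were higher and 1 (0 without IVM MII-1 or IVM MII-2, 2 without IVO MII-2) lower. Among them, the outer membrane receptors TOMM22 and TOMM20 read 43.9 and 37.7 against 11.7 and 12.03 CPM and 66.9 and 70.4 against 38.6 and 30.2 CPM. Of 38 inner membrane carriers, 1 (3 without IVO MII-2) was higher and 4 (1 without IVM MII-1 or IVO MII-1, 0 without IVM MII-2, 2 without IVO MII-2) were lower (4 and 1 with library totals). For the tricarboxylic acid cycle and pyruvate entry, 7 (4 without IVM MII-2) of 30 genes were higher and 3 (1 without IVM MII-2 or IVO MII-2) lower, with a median of 0.03 (-0.03 with RLE factors). The pyruvate carrier subunit MPC2 read 18.4 and 17.8 against 5.102 and 7.03 CPM (log2 fold change 1.57 ± 0.27, adjusted p = 0.00178) and the pyruvate dehydrogenase subunit PDHB 15.8 and 22.5 against 6.38 and 7.100 CPM (log2 fold change 1.51 ± 0.27, adjusted p = 0.00222). PDK1, a kinase that inactivates pyruvate dehydrogenase, read 739 and 1178 CPM in IVM MII, against 2617 and 3135 CPM in IVO MII (log2 fold change -1.59 ± 0.30, adjusted p = 0.00276). Glycolysis and the pentose phosphate pathway had 0 (2 without IVO MII-2) higher and 2 (1 without GV-1 or IVO MII-1, 0 without GV-2, IVM MII-1, IVM MII-2 or IVO MII-2) lower genes of 22 (1 and 0 with library totals).

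Fatty acid oxidation, an important energy source of the maturing oocyte, had 7 (3 without IVM MII-2) higher and 1 (0 without IVM MII-2 or IVO MII-1) lower genes of 25, with a median of 0.40. The higher share of this list was above the 14.3% of all genes, and its lower share was below the 10.3% of all genes. HADH, which carries out the third step of the cycle, read 35.3 and 26.97 against 10.4 and 12.2 CPM (log2 fold change 1.46 ± 0.24, adjusted p = 0.00146), and the long-chain dehydrogenase ACADL 8.15 and 7.93 against 1.31 and 1.26 CPM (log2 fold change 2.64 ± 0.35, adjusted p = 3.66e-04). Cholesterol synthesis had 3 higher and 2 (1 without IVM MII-2 or IVO MII-2) lower genes of 24 (2 and 2 with RLE factors or the length trend removed). Of this list 12.5% were higher and 8.33% lower, against 14.3% and 10.3% of all genes. SQLE, the squalene epoxidase early in that pathway, read 21.97 and 16.00 against 2.09 and 3.33 CPM (log2 fold change 2.80 ± 0.32, adjusted p = 1.34e-04), whereas MSMO1, the methylsterol oxidase acting later, read 29.6 and 35.6 against 90.7 and 80.1 CPM (log2 fold change -1.39 ± 0.22, adjusted p = 0.00102). SQLE and MSMO1 thus moved apart, in a list that was called no more often than all genes.

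Genes of peroxide and thiol defence were among the lists with the largest share of higher genes, at 35.0% against 14.3% of all genes. Of 40 tested, 14 (9 without IVM MII-2) were higher (35.00%) and 3 lower, with a median of 0.59. TXNRD1, the cytosolic thioredoxin reductase, read 25.7 and 25.7 against 5.91 and 5.503 CPM (log2 fold change 2.17 ± 0.26, adjusted p = 1.72e-04), and the mitochondrial glutaredoxin GLRX2 107 and 141 against 24.9 and 38.8 CPM (log2 fold change 1.96 ± 0.27, adjusted p = 4.03e-04). Catalase, CAT, was low in all libraries, at 5.301 and 5.46 against 0.386 and 0.611 CPM (log2 fold change 3.41 ± 0.44, adjusted p = 3.10e-04). Genes that act inside mitochondria were found in both directions. NNT, which makes mitochondrial NADPH from NADH, read 0.556 and 0.597 against 4.83 and 7.54 CPM (log2 fold change -3.42 ± 0.40, adjusted p = 1.59e-04). SOD2, the mitochondrial superoxide dismutase, read 241 and 252 against 561 and 612 CPM (log2 fold change -1.25 ± 0.22, adjusted p = 0.0019), with 259 and 270.2 CPM in GV, so the cultured oocytes stayed near the GV level. SQRDL, the mitochondrial sulfide oxidase, read 81.5 and 94.5 against 7.85 and 11.2 CPM (log2 fold change 3.21 ± 0.26, adjusted p = 2.00e-05).

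Entry into the endoplasmic reticulum and glycosylation had calls in 1 direction, with 27.5% of genes higher against 14.3% of all genes. Of 40 genes tested, 11 were higher and 0 (1 without IVO MII-1) lower, and 10 of the higher calls were stable, although the list's median was only 0.05 (-0.02 with RLE factors and -0.10 with the length trend removed). SEC61G, a subunit of the protein-conducting channel, read 28.6 and 31.97 against 7.77 and 8.05 CPM (log2 fold change 1.94 ± 0.23, adjusted p = 1.61e-04). SSR2, of the translocon-associated complex, read 61.95 and 74.3 against 18.8 and 20.7 CPM (log2 fold change 1.78 ± 0.22, adjusted p = 2.33e-04), and SPCS1, of the signal peptidase, 123 and 113 against 33.2 and 34.9 CPM (log2 fold change 1.79 ± 0.21, adjusted p = 1.74e-04), with 23.3% of its exon bases shared with another gene. The channel, its associated complex and the peptidase act one after another on the same nascent chains. HSPA5, the main chaperone of the endoplasmic reticulum, read 80.8 and 88.7 against 12.8 and 18.4 CPM (log2 fold change 2.44 ± 0.28, adjusted p = 1.26e-04), and FKBP9, a prolyl isomerase there, 78.02 and 67.3 against 8.58 and 15.8 CPM (log2 fold change 2.57 ± 0.29, adjusted p = 1.37e-04). For both, IVM MII overlapped GV, at 63.1 and 95.4 CPM for HSPA5 and 64.7 and 74.8 CPM for FKBP9.

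Chaperone genes moved both ways. The heat shock protein and DNAJ list is not limited to the cytosol and includes HSPA5 among its higher genes. Heat shock protein and DNAJ genes were 24.1% higher and 12.1% lower, and prefoldin and chaperonin genes 28.6% and 7.14%. Of all genes 14.3% were higher and 10.3% lower. Of 58 heat shock protein and DNAJ genes, 14 were higher and 7 (2 without IVM MII-1, 1 without IVM MII-2, 3 without IVO MII-1) lower. DNAJB4 read 6.09 and 7.44 CPM in GV, 55.5 and 68.9 in IVM MII oocytes and 11.1 and 12.7 in IVO MII (log2 fold change 2.38 ± 0.24, adjusted p = 7.53e-05), so it was high in culture alone. HSPA4L, a nucleotide exchange factor of HSP70, read 15.3 and 28.9 against 68.3 and 81.3 CPM (log2 fold change -1.76 ± 0.29, adjusted p = 0.00143). Prefoldin and chaperonin genes, which fold actin and tubulin, had 4 (1 without IVM MII-2) higher and 1 (0 without IVM MII-1, IVM MII-2 or IVO MII-1) lower of 14, with VBP1 at 141 and 190.4 against 69.6 and 45.9 CPM.

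In membrane traffic, COPI and COPII coat and cargo genes had 6 higher and 4 (2 without IVM MII-1 or IVO MII-1, 1 without IVM MII-2) lower of 33. RAB GTPases had 6 higher and 8 (3 without IVM MII-1, 4 without IVM MII-2, IVO MII-1 or IVO MII-2) lower of 48 (6 and 5 with library totals). RAB1A, which acts between endoplasmic reticulum and Golgi, read 222 and 280.2 against 51.98 and 65.1 CPM (log2 fold change 2.10 ± 0.24, adjusted p = 1.26e-04), and the cargo receptor TMED10 126 and 149 against 61.8 and 71.3 CPM (log2 fold change 1.05 ± 0.22, adjusted p = 0.00512). The V-ATPase, the proton pump of lysosomes and of secretory vesicles, had 6 higher and 1 (0 without IVM MII-1, 2 without IVO MII-1) lower of 22 genes. Its subunit ATP6V1G1 read 485 and 772 CPM in IVM MII, against 141 and 213 CPM in IVO MII (log2 fold change 1.83 ± 0.30, adjusted p = 0.0012). Of 35 autophagy genes, 4 (2 without IVM MII-1) were higher and 3 (0 without IVM MII-2) lower (4 and 4 with RLE factors), with ATG3, which attaches LC3 to lipid, at 337 and 369 against 70.3 and 98.5 CPM and ATG16L1 at 34.7 and 23.6 against 7.15 and 7.71 CPM. The lysosomal protease CTSB read 55.1 and 34.1 against 131 and 169 CPM (log2 fold change -1.75 ± 0.27, adjusted p = 9.15e-04). The higher shares were 18.2% for coats, 12.5% for RAB GTPases, 27.3% for the V-ATPase and 11.4% for autophagy, against 14.3% of all genes. The lower shares were 12.1%, 16.7%, 4.55% and 8.57%, against 10.3% of all genes.

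Ribosomal protein and translation factor genes showed few calls beyond the background, with 17.6% and 25.9% called against 24.6% of all genes. Ribosome biogenesis genes were called more often, at 40.8%, with 16.3% higher and 24.5% lower against 14.3% and 10.3% of all genes. Of 85 ribosomal protein genes, 13 (4 without IVM MII-2, 7 without IVO MII-2) were higher and 2 (0 without IVM MII-1 or IVM MII-2, 1 without IVO MII-1, 6 without IVO MII-2) lower (8 and 13 with the length trend removed). The higher share was near the 14.3% of all genes, and the median was 0.15 (-0.15 with the length trend removed). RPS7 read 27.8 and 30.3 against 11.8 and 10.9 CPM and RPL39L, a germ cell form of RPL39, 25.5 and 25.5 against 8.31 and 10.9 CPM; ribosomal protein genes have many processed copies, so their assignment is uncertain. Of 58 translation factor genes, 9 were higher and 6 (1 without IVM MII-1 or IVM MII-2, 0 without IVO MII-1) lower (7 and 7 with the length trend removed). EIF1B, a factor of start codon choice, read 383 and 595 CPM in IVM MII, against 140.5 and 117 CPM in IVO MII (log2 fold change 1.93 ± 0.28, adjusted p = 5.74e-04). EIF2S2, a subunit of the initiator tRNA carrier eIF2, read 136 and 154 against 61.6 and 56.1 CPM (log2 fold change 1.30 ± 0.22, adjusted p = 0.00152). Ribosome biogenesis had 8 (4 without IVM MII-2) higher and 12 (4 without IVM MII-1, 7 without IVM MII-2 or IVO MII-1) lower of 49 (9 and 7 with library totals), with a median of -0.38. Without IVM MII-1 there were 6 higher and 4 lower, and without IVO MII-1 8 and 7, so the balance turned there too. MPHOSPH10, of the small subunit processome, read 33.04 and 41.4 against 99.8 and 80.4 CPM (log2 fold change -1.28 ± 0.23, adjusted p = 0.00208). IMP3, its partner in 1 subcomplex, read 29.3 and 26.4 against 10.9 and 11.5 CPM (log2 fold change 1.32 ± 0.22, adjusted p = 0.00158).

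Genes of RNA handling moved both ways and were called near the background. Transcription genes were 17.9% higher and 8.49% lower and splicing genes 15.6% and 9.02%, against 14.3% and 10.3% of all genes. The transcription list of RNA polymerases, general factors and Mediator had 19 (11 without IVM MII-2) higher and 9 (5 without IVM MII-1, IVM MII-2 or IVO MII-1) lower of 106 (14 and 16 with the length trend removed). TAF9, of the TFIID complex, read 245 and 294 against 71.6 and 65.02 CPM (log2 fold change 1.98 ± 0.22, adjusted p = 1.28e-04, 15.1% of exon bases shared), and GTF2H5, the smallest subunit of TFIIH, 227 and 299 against 75.2 and 80.2 CPM (log2 fold change 1.76 ± 0.23, adjusted p = 3.36e-04). POLR3A, the largest subunit of RNA polymerase III, read 7.08 and 6.93 against 19.6 and 14.4 CPM (log2 fold change -1.28 ± 0.27, adjusted p = 0.00601). Splicing had 19 higher and 11 (6 without IVM MII-1, 4 without IVM MII-2, 7 without IVO MII-1) lower of 122 (15 and 18 with the length trend removed). SNRPC, of the U1 particle, read 15.9 and 16.1 against 1.74 and 2.45 CPM (log2 fold change 2.93 ± 0.28, adjusted p = 4.95e-05), and LSM6, of the U6 and decay-linked LSM rings, 381 and 472 against 80.2 and 97.02 CPM (log2 fold change 2.27 ± 0.24, adjusted p = 9.16e-05). RBM26, a much longer gene of the same list, read 144 and 159 against 405 and 345 CPM (log2 fold change -1.31 ± 0.24, adjusted p = 0.00226).

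The lists closest to the control of stored mRNA held few stable calls. Binder and polyadenylation genes were 8.33% higher and 16.7% lower and decay genes 14.3% and 12.5%, against 14.3% and 10.3% of all genes. Of 36 mRNA binder and polyadenylation genes, 3 (1 without IVO MII-1) were higher and 6 (3 without IVM MII-1, 0 without IVM MII-2, 2 without IVO MII-1) lower (3 and 1 with library totals). PABPC1L, the oocyte poly(A)-binding protein, was the one stable call, at 15.8 and 15.4 CPM in IVM MII, against 4.21 and 5.06 CPM in IVO MII (log2 fold change 1.75 ± 0.25, adjusted p = 5.49e-04), with 27.4 and 29.9 CPM in GV. CPEB1, which directs cytoplasmic polyadenylation, read 750.0 and 614 against 717 and 828 CPM and did not pass the test (adjusted p = 0.605). Of 56 deadenylation and decay genes, 8 (5 without IVM MII-1, 4 without IVM MII-2) were higher and 7 (2 without IVM MII-1, 3 without IVM MII-2 or IVO MII-1) lower (7 and 8 with RLE factors or the length trend removed). EXOSC8, a subunit of the exosome, read 54.9 and 71.1 against 13.2 and 16.5 CPM (log2 fold change 2.08 ± 0.24, adjusted p = 1.37e-04, 18.8% of exon bases shared), and the AU-rich element binder ZFP36L2 7.55 and 6.76 against 1.51 and 1.73 CPM (log2 fold change 2.14 ± 0.31, adjusted p = 6.47e-04). PAN2, the catalytic subunit of the PAN2-PAN3 deadenylase, read 11.8 and 11.7 against 29.8 and 29.01 CPM (log2 fold change -1.32 ± 0.23, adjusted p = 0.00198). BTG4, an adaptor that brings the CCR4-NOT deadenylase to maternal mRNA, read 3906 and 6728 CPM in IVM MII, against 9818 and 7926 CPM in IVO MII and did not pass (adjusted p = 0.117); it passed by DESeq2 (adjusted p = 0.0227) and without IVM MII-2 (adjusted p = 0.0377).

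Protein degradation genes were called in both directions. For the proteasome 18.6% of genes were higher and 4.65% lower, against 14.3% and 10.3% of all genes. Of 43 proteasome genes, 8 (5 without IVM MII-2) were higher and 2 (1 without IVM MII-2 or IVO MII-1) lower, including 4 higher of 16 core subunits, such as PSMA3 at 134 and 218 against 55.00 and 48.7 CPM (log2 fold change 1.76 ± 0.26, adjusted p = 6.90e-04). Cullin and BTB-Kelch genes had 2 (1 without GV-1, GV-2, IVM MII-1, IVM MII-2 or IVO MII-2, 0 without IVO MII-1) higher and 8 (3 without IVM MII-1, 4 without IVM MII-2, 5 without IVO MII-2) lower of 38 (3 and 4 with library totals). F-box genes had 3 (0 without IVM MII-2, 1 without IVO MII-1) higher and 5 (3 without IVO MII-2) lower of 54 (5 and 3 with library totals). USP deubiquitinases had 1 (0 without IVM MII-2) higher and 6 (1 without IVM MII-1 or IVM MII-2) lower of 46 (4 and 2 with library totals). The lower shares were 21.1%, 9.26% and 13.04%, against 10.3% of all genes. The higher shares were 5.26%, 5.56% and 2.17%, against 14.3% of all genes. KLHL23, a Kelch adaptor, read 97.1 and 87.98 against 309.9 and 259.6 CPM (log2 fold change -1.62 ± 0.22, adjusted p = 3.97e-04), and the F-box genes FBXO30 and FBXO45 92.5 and 96.8 against 320.0 and 248 CPM and 39.7 and 43.2 against 153 and 148 CPM. FBXO30, at 80.6 and 54.9 CPM in GV, and KLHL23, at 61.4 and 67.4, were high in vivo alone. The ubiquitin-conjugating variants UBE2V2 and UBE2V1, which partner the same enzyme UBE2N, moved apart, at 89.8 and 158 against 25.8 and 30.98 CPM (log2 fold change 2.12 ± 0.28, adjusted p = 3.47e-04) and 44.2 and 42.7 against 110.5 and 102 CPM (log2 fold change -1.29 ± 0.22, adjusted p = 0.0018). The anaphase promoting complex, which ends metaphase, had 1 (0 without GV-2, IVM MII-1, IVO MII-1 or IVO MII-2) higher and 0 lower gene of 20 (0 and 1 with the length trend removed).

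**Figure D4:**
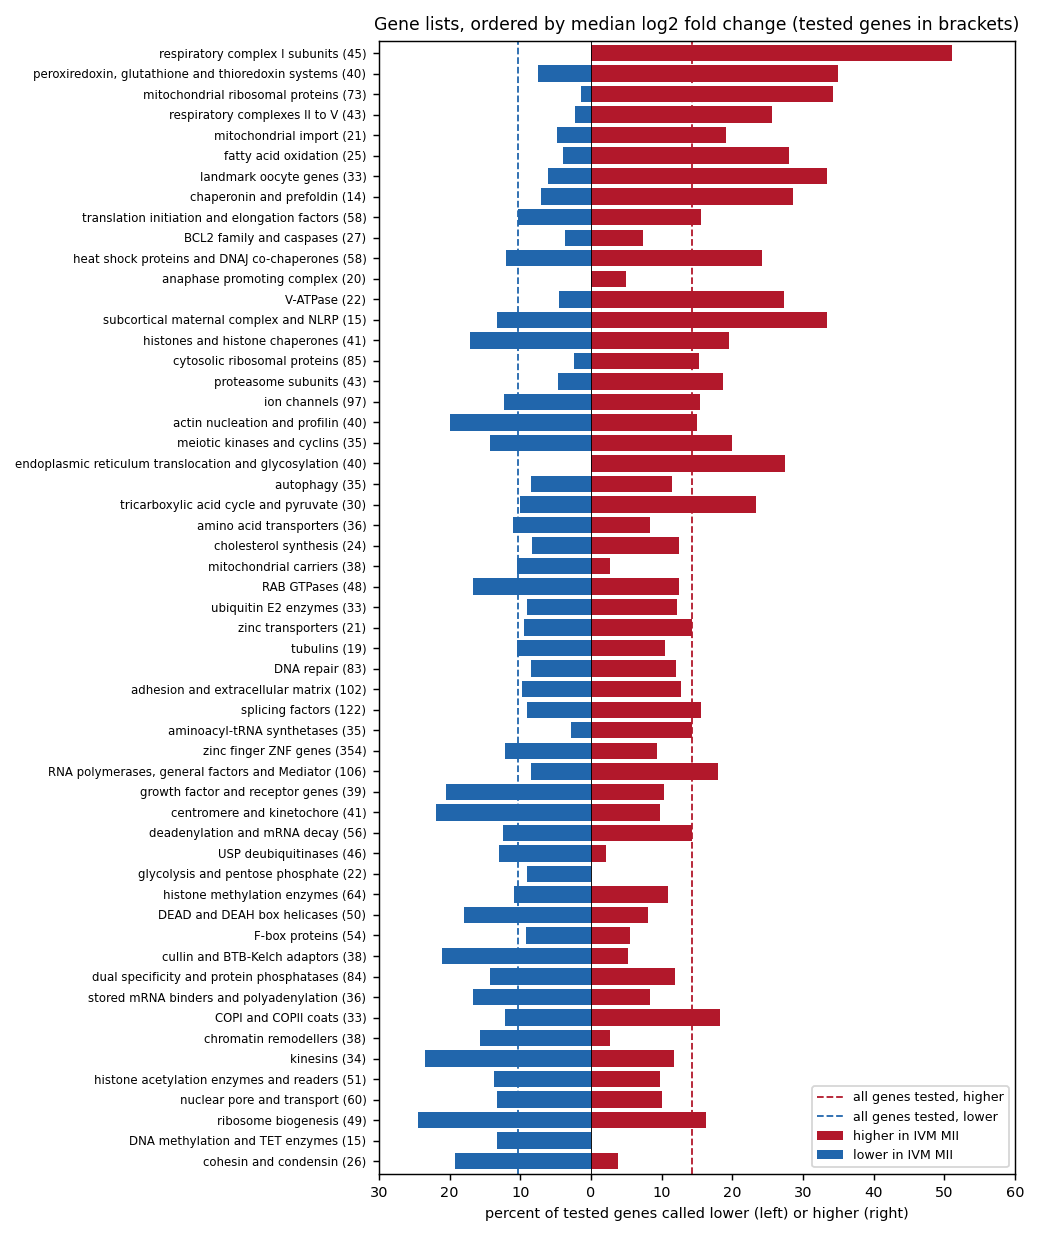
Percent of the tested genes of each list called higher (red, right) and lower (blue, left) in IVM MII, for lists with at least 10 tested genes, ordered by median log2 fold change; the number tested stands in brackets. Dashed lines mark the 14.3% higher and 10.3% lower of all genes tested. Complex I reaches furthest to the right, and bars near the dashed lines do not stand apart from the background.

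The machinery of the meiotic cell cycle was called in both directions, with 20.0% of genes higher and 14.3% lower, against 14.3% and 10.3% of all genes. Of 35 kinase and cyclin genes, 7 (4 without IVM MII-2 or IVO MII-1) were higher and 5 (2 without IVM MII-1, 3 without IVM MII-2) lower (6 and 6 with RLE factors, 7 and 7 with the length trend removed). CCNH, the cyclin of the CDK-activating kinase, read 976 and 1031 CPM in GV, 299 and 380.1 in IVM MII oocytes and 68.5 and 87.7 in IVO MII (log2 fold change 2.12 ± 0.25, adjusted p = 1.72e-04). CDK1, the M phase kinase that it helps to activate, read 74.5 and 103 against 18.2 and 31.8 CPM (log2 fold change 1.83 ± 0.29, adjusted p = 0.00116). CCNB2, or cyclin B2, read 366 and 449 against 178 and 167 CPM (log2 fold change 1.24 ± 0.23, adjusted p = 0.00255), a stable call. WEE2, the oocyte kinase that inhibits CDK1, read 2950.0 and 3026 CPM in IVM MII, against 8634 and 10944 CPM in IVO MII (log2 fold change -1.71 ± 0.29, adjusted p = 0.0017). CCNA2, or cyclin A2, read 94.2 and 93.3 against 171 and 228 CPM (log2 fold change -1.09 ± 0.22, adjusted p = 0.00464). CCNB1, or cyclin B1, the main cyclin partner of CDK1 and named after its values were seen, read 746 and 792 CPM in IVM MII, against 1317 and 1185 CPM in IVO MII (log2 fold change -0.70 ± 0.23, adjusted p = 0.0459). This call ended without each of the 6 libraries (adjusted p from 0.0765 to 0.192) and with library totals (adjusted p = 0.109). Cyclins and kinases of CDK1 control were thus found on both sides. MOS, which maintains the MII arrest, read 193 and 137 CPM in IVM MII oocytes and 179 and 547 in IVO MII, where the spread was wide (adjusted p = 0.0646). It passed as lower by DESeq2 (adjusted p = 0.0112), with RLE factors (adjusted p = 0.0486), with the length trend removed (adjusted p = 0.0249) and without IVO MII-1 (adjusted p = 7.34e-04). The log2 fold change of MOS ran from -1.73 to -0.11 with 1 library left out. FBXO43, or EMI2, the inhibitor of the anaphase promoting complex in that arrest, read 41.97 and 42.5 against 45.5 and 44.8 CPM (log2 fold change -0.10 ± 0.22, adjusted p = 0.776).

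Chromosome and spindle genes were called in both directions. Centromere and kinetochore genes had 4 higher and 9 (2 without IVM MII-1, IVM MII-2 or IVO MII-1) lower of 41 (5 and 5 with library totals). Kinesins had 4 (2 without IVM MII-1, IVM MII-2 or IVO MII-1) higher and 8 (4 without IVM MII-1, 0 without IVM MII-2, 1 without IVO MII-1) lower of 34 (5 and 4 with library totals). Cohesin and condensin genes had 1 higher and 5 (2 without IVM MII-1, 3 without IVO MII-1) lower of 26. The lower shares were 21.95%, 23.5% and 19.2%, against 10.3% of all genes, and 1, 0 and 2 of these lower calls were stable. The higher shares were 9.76%, 11.8% and 3.85%, against 14.3% of all genes. The kinetochore scaffold CASC5, also known as KNL1, read 65.7 and 61.5 against 269 and 144 CPM (log2 fold change -1.70 ± 0.34, adjusted p = 0.00395), while its partners ZWINT and NSL1 read 47.8 and 42.3 against 10.1 and 12.9 CPM and 88.7 and 98.7 against 45.95 and 42.5 CPM, with log2 fold changes of 1.97 ± 0.25 and 1.08 ± 0.23. ESCO1, the cohesin acetyltransferase, read 114 and 70.4 CPM in GV and 96.8 and 126 against 434 and 339 CPM in IVM MII against IVO MII (log2 fold change -1.79 ± 0.28, adjusted p = 9.59e-04). CDCA5, or sororin, which protects cohesin, read 26.7 and 24.4 against 9.701 and 8.97 CPM (log2 fold change 1.45 ± 0.24, adjusted p = 0.00142). Kinetochore and cohesin partners therefore did not move as a block. The kinesin-binding protein KIF1BP, matched by its symbol, read 145 and 148 against 53.6 and 73.3 CPM.

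Of 19 tubulin genes, 2 were higher and 2 lower, or 10.5% each, against 14.3% and 10.3% of all genes. For actin nucleation and profilin genes the shares were 15.0% higher and 20.0% lower. TUBA1B, an abundant alpha-tubulin with close paralogs, read 551 and 537 CPM in IVM MII, against 1189 and 1170.2 CPM in IVO MII (log2 fold change -1.12 ± 0.25, adjusted p = 0.00751), and TUBB8, the beta-tubulin of the primate oocyte spindle, 32.4 and 40.8 against 42.3 and 65.6 CPM (adjusted p = 0.284). DYNLL1, the dynein light chain, read 304 and 344 CPM in GV, 59.03 and 52.9 in IVM MII oocytes and 8.66 and 12.8 in IVO MII (log2 fold change 2.38 ± 0.25, adjusted p = 8.82e-05). Actin nucleation and profilin genes had 6 (1 without IVM MII-2) higher and 8 (4 without IVM MII-1, 3 without IVM MII-2) lower of 40 (8 and 5 with library totals). Subunits of the Arp2/3 complex moved apart, with ARPC3 at 36.2 and 53.3 against 5.797 and 6.69 CPM (log2 fold change 2.84 ± 0.27, adjusted p = 4.52e-05) and ARPC1B at 2.75 and 1.39 against 13.3 and 16.1 CPM (log2 fold change -2.81 ± 0.45, adjusted p = 0.0012).

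Chromatin genes were called in both directions, and histone modifying enzymes near the background. Histone acetylation enzymes and readers had 5 higher and 7 (2 without IVM MII-1 or IVM MII-2, 3 without IVO MII-1) lower of 51 (8 and 2 with library totals). Among the higher genes, KATNAL2 is a katanin-like severing protein caught by its symbol. Chromatin remodellers had 1 (0 without GV-1, IVM MII-2, IVO MII-1 or IVO MII-2) higher and 6 (2 without IVM MII-1, 1 without IVM MII-2) lower of 38. The medians of both lists were -0.32 and -0.30. Their higher shares were 9.80% and 2.63%, against 14.3% of all genes. Their lower shares were 13.7% and 15.8%, against 10.3% of all genes. Histone methylation enzymes were even with TMM factors only, at 7 higher and 7 lower of 64 (6 and 11 with RLE factors, 8 and 3 with library totals, 8 and 10 with the length trend removed). The lower count fell without IVM MII-1 or IVM MII-2. With TMM factors 10.9% were higher and 10.9% lower, against 14.3% and 10.3% of all genes. SMYD3, a lysine methyltransferase, read 852 and 983 CPM in GV, 280.2 and 378 in IVM MII oocytes and 75.98 and 78.2 in IVO MII (log2 fold change 2.09 ± 0.25, adjusted p = 1.72e-04). WDR5, a core subunit of the MLL methyltransferases, read 129 and 137, 13.9 and 11.7 and 49.3 and 54.7 CPM (log2 fold change -2.03 ± 0.22, adjusted p = 1.02e-04). Both lay below GV in each MII group, but SMYD3 was lower in vivo and WDR5 lower in culture. TET3, the oocyte dioxygenase of methylcytosine, read 55.7 and 51.1 against 135 and 137 CPM (log2 fold change -1.35 ± 0.25, adjusted p = 0.00238), with 36.3 and 23.2 CPM in GV.

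In DNA repair, 10 (5 without IVM MII-1 or IVM MII-2) of 83 genes were higher and 7 (3 without IVM MII-1 or IVM MII-2, 11 without IVO MII-2) lower (7 and 10 with RLE factors, 8 and 8 with the length trend removed). RPA2, of the single-strand binding complex, read 105 and 109 against 37.1 and 36.7 CPM (log2 fold change 1.54 ± 0.21, adjusted p = 4.03e-04). Nuclear pore and transport genes had 6 higher and 8 (0 without IVM MII-1 or IVM MII-2, 2 without IVO MII-1) lower of 60 (7 and 1 with library totals). Of the lower calls 0 were stable. KPNA2, an importin alpha, read 2172 and 1899 CPM in GV, 601 and 737 in IVM MII oocytes and 288 and 312 in IVO MII (log2 fold change 1.16 ± 0.25, adjusted p = 0.00587). The oocyte importin KPNA7 read 5409 and 5146 CPM in IVM MII, against 6360.1 and 8177 CPM in IVO MII and did not pass (adjusted p = 0.301).

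Of 33 landmark oocyte genes tested, 11 (6 without IVM MII-2, 4 without IVO MII-1) were higher and 2 lower, but only 3 of the higher calls and 1 of the lower calls were stable. ASTL, the ovastacin protease of the cortical granules, read 68.2 and 76.3 CPM in GV and 112 and 63.9 against 11.7 and 16.5 CPM in IVM MII against IVO MII (log2 fold change 2.64 ± 0.30, adjusted p = 1.37e-04). SOHLH2, an oogenesis transcription factor, read 197 and 169.6 CPM in GV and 544 and 566 CPM in IVM MII, against 251 and 249 CPM in IVO MII (log2 fold change 1.15 ± 0.22, adjusted p = 0.00312). OVCH1, an oocyte-expressed protease, read 50.03 and 59.6 against 25.6 and 28.1 CPM (log2 fold change 1.03 ± 0.22, adjusted p = 0.00536). The lower stable gene was WEE2. Of the landmark list 33.3% were higher and 6.06% lower, against 14.3% and 10.3% of all genes. Transcripts that define the oocyte were strong in both MII groups and did not pass the test for BMP15 (1555 and 2601 against 1888 and 2707 CPM), DPPA3 (5988 and 9436 against 13856 and 10097 CPM), DDX4 (229 and 261 against 299.7 and 236 CPM) and OTX2 (1182 and 1002 against 1134 and 1389 CPM); DPPA3 passed by DESeq2. BCL2L10, the oocyte survival protein, read 6831 and 5581 CPM in IVM MII, against 8515 and 10683 CPM in IVO MII (adjusted p = 0.136), and passed by DESeq2 and with the length trend removed.

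The calls of the egg coat genes ZP2, ZP3 and ZP4 depended on single libraries, and ZP1 was not called. ZP1 read 107 and 49.4 CPM in IVM MII, against 46.3 and 72.2 CPM in IVO MII (log2 fold change 0.40 ± 0.34, adjusted p = 0.416). The zona pellucida genes ZP3 and ZP4 read 5010.1 and 4854 against 1161 and 2059 CPM and 1779 and 2095 against 774 and 1006 CPM (1.61 ± 0.37 and 1.12 ± 0.27 on the log2 scale), and ZP2 2126 and 2136 CPM in IVM MII, against 1144 and 1245 CPM in IVO MII (log2 fold change 0.83 ± 0.25, adjusted p = 0.0301). The call of ZP4 ended without IVM MII-2 (1.00, adjusted p = 0.05) or IVO MII-1 (0.95, adjusted p = 0.0963), and that of ZP3 without IVO MII-1 (1.26, adjusted p = 0.0624). The call of ZP2 held without GV-2 and ended without each of the other 5 libraries, at adjusted p from 0.0506 to 0.163. GDF9, the growth factor that the oocyte sends to its cumulus cells, read 4005 and 5002 CPM in IVM MII, against 2259 and 2645 CPM in IVO MII (log2 fold change 0.88 ± 0.28, adjusted p = 0.0424), and its call ended with RLE factors (0.81, adjusted p = 0.057) and without GV-1 (0.88, adjusted p = 0.0702), GV-2 (0.88, adjusted p = 0.0693), IVM MII-2 (0.71, adjusted p = 0.127), IVO MII-1 (0.77, adjusted p = 0.237) or IVO MII-2 (1.01, adjusted p = 0.122). In ZP2, ZP3, ZP4 and GDF9 the IVM MII libraries lay above both IVO MII libraries, while in ZP1 the MII libraries overlapped. KIT, the receptor of KIT ligand on the oocyte, read 21.7 and 17.3 CPM in IVM MII, against 35.8 and 42.6 CPM in IVO MII (log2 fold change -1.01 ± 0.26, adjusted p = 0.0153), and its call ended with library totals (-0.78, adjusted p = 0.0835) and without IVM MII-2 (-0.85, adjusted p = 0.12). CD9, which sperm fusion needs on the egg, read 101 and 139 against 40.2 and 61.96 CPM (log2 fold change 1.23 ± 0.27, adjusted p = 0.00707), and its call ended without IVM MII-2 (0.98, adjusted p = 0.0729).

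The subcortical maternal complex and NLRP genes, which act in the early embryo, had 5 (3 without IVM MII-1 or IVM MII-2, 2 without IVO MII-1) higher and 2 (1 without GV-1, GV-2 or IVO MII-2, 0 without IVM MII-2 or IVO MII-1) lower of 15. NLRP2 and NLRP7 read 719.7 and 734 against 208 and 282 CPM and 303 and 270.5 against 64.5 and 111 CPM, and the IVM MII libraries lay close to those of GV, at 804 and 768 and 298 and 276 CPM. These genes lie in a family of close copies. Of the subcortical maternal complex and NLRP list 33.3% were higher and 13.3% lower, against 14.3% and 10.3% of all genes. Among genes with at least 1000 CPM in the higher group, 139 were tested and 30.2% called, 13 higher and 29 lower, with 3 and 9 stable calls. The examples that follow were chosen after their values were seen. TCL1A, an activator of AKT kinase known from oocytes, read 1476 and 2546 CPM in GV, 2609 and 3185 in IVM MII oocytes and 543 and 729 in IVO MII (log2 fold change 2.19 ± 0.32, adjusted p = 6.89e-04). LDHAL6A, a lactate dehydrogenase-like gene, read 1727 and 2114 CPM in IVM MII, against 679 and 678 CPM in IVO MII (log2 fold change 1.50 ± 0.27, adjusted p = 0.00212). EPSTI1, an interferon-inducible gene, read 444 and 481 CPM in GV, 766 and 763 in IVM MII oocytes and 1578 and 1703 in IVO MII (log2 fold change -1.10 ± 0.23, adjusted p = 0.00588). TCL1A and LDHAL6A, the latter at 1686 and 2283 CPM in GV, were thus low in vivo alone, and the level of EPSTI1 stepped up from GV to IVM MII to IVO MII.

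Growth factor and receptor genes had 4 higher and 8 (1 without IVM MII-1, 2 without IVM MII-2 or IVO MII-1) lower of 39 (6 and 2 with library totals). BMPR1B, a type I receptor of bone morphogenetic proteins, read 14.6 and 17.5 CPM in GV, 38.5 and 39.6 in IVM MII oocytes and 6.42 and 6.28 in IVO MII (log2 fold change 2.62 ± 0.24, adjusted p = 4.21e-05). ACVR1C, or ALK7, a receptor of NODAL and activins, read 25.1 and 18.1, 9.72 and 10.7 and 77.3 and 60.7 CPM (log2 fold change -2.76 ± 0.26, adjusted p = 4.52e-05). GV lay between the MII groups for both receptors, which moved in opposite directions. Of the growth factor and receptor list 10.3% were higher and 20.5% lower, against 14.3% and 10.3% of all genes. The BCL2 family and caspases, the core of cell death, had 2 (0 without IVM MII-1 or IVM MII-2, 1 without IVO MII-2) higher and 1 (0 without IVM MII-1 or IVM MII-2) lower gene of 27 (2 and 2 with RLE factors, 1 and 3 with the length trend removed), which is below the background.

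Where GV lay relative to the MII groups was read from levels only, by whether libraries overlapped. Among the 2260 higher genes, IVM MII lay between GV and IVO MII for 770 (34.1%), against 36.4% of all tested genes with a positive fold change and separate MII libraries. IVM MII overlapped GV for 448 (19.8%, against 17.3%), and GV lay between the MII groups for 578 (25.6%, against 12.96%). IVO MII overlapped GV for 293 (13.0%, against 15.0%) and lay between GV and IVM MII for 165 (7.30%, against 15.2%). IVM MII lay between GV and IVO MII for 599 of the 1635 lower genes. That is 36.6%, against 44.1% of all tested genes with a negative fold change and separate MII libraries. Among the lower genes, IVM MII overlapped GV for 335 (20.5%, against 16.5%), and GV lay between the MII groups for 287 (17.6%, against 7.77%). IVO MII overlapped GV for 180, a share near its background of 10.5%. IVO MII lay between GV and IVM MII for 226 (13.8%, against 18.3%). In 1218 higher and 934 lower genes the IVM MII level was between GV and IVO MII or overlapped GV. These counts join placements that are also common in the backgrounds just given, so their size shows no excess of genes near GV. In both directions, IVM MII between GV and IVO MII was less frequent than in its background, and IVM MII overlapping GV was more frequent. Since the calls and the placement use the same MII libraries, these shares describe the called genes and are not tested.

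**Figure D5:**
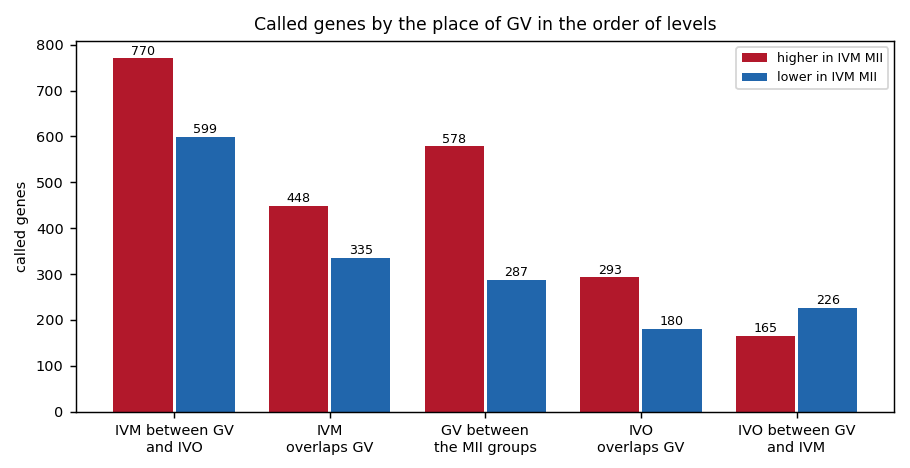
Number of called genes (vertical axis) by the place of GV in the order of the library levels, for the 2260 higher (red) and 1635 lower genes (blue); 6 higher and 8 lower genes with other overlaps are left out. The tallest pair of bars, 770 and 599 genes, holds genes whose IVM MII level lies between GV and IVO MII. This placement was no more frequent than among all tested genes of the same sign with separate MII libraries.

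Each placement had clear examples. COMMD1, a copper and endosome trafficking protein, stepped down from 175 and 202 CPM in GV to 54.4 and 63.3 in IVM MII oocytes and 10.4 and 13.8 in IVO MII (log2 fold change 2.28 ± 0.24, adjusted p = 8.36e-05). NEK7, a mitotic kinase, stepped up from 13.1 and 12.1 to 20.05 and 29.04 and 93.2 and 85.2 CPM (log2 fold change -1.86 ± 0.24, adjusted p = 3.24e-04). LRIG3, a membrane regulator of receptor kinases, did so from 9.47 and 9.57 to 17.2 and 18.1 and 95.9 and 75.1 CPM (log2 fold change -2.28 ± 0.23, adjusted p = 6.86e-05). In these 3 genes the in vivo oocytes were further from GV than the cultured ones. The opposite order, in which culture lay further from GV, was found for LRR1, a substrate receptor of a cullin ligase, at 478 and 551 CPM in GV, 55.3 and 73.7 in IVM MII oocytes and 225 and 260.2 in IVO MII (log2 fold change -1.91 ± 0.24, adjusted p = 2.64e-04). GLS2, the mitochondrial glutaminase, was high in culture alone, at 10.6 and 20.7, 62.8 and 88.3 and 15.7 and 16.4 CPM (log2 fold change 2.23 ± 0.32, adjusted p = 5.31e-04). CIART, a repressor of the circadian clock, had the same order, at 80.7 and 110.0, 308 and 342 and 75.6 and 136 CPM (log2 fold change 1.62 ± 0.29, adjusted p = 0.00219). CDADC1, a deaminase-like gene, moved away from GV in both directions, at 25.4 and 29.4, 50.8 and 62.1 and 4.75 and 4.82 CPM (log2 fold change 3.56 ± 0.25, adjusted p = 7.30e-06).

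Markers of other cells were low but not absent. Of 17 cumulus and granulosa markers in the table, 11 were below 1 CPM in all 4 MII libraries and 6, among them FOXL2, AMH, STAR and INHA, had no count there. The list summed to 356 and 219 CPM in IVM MII, against 264 and 329 CPM in IVO MII, which overlap, and SERPINE2 made up most of it (268 and 133 against 227 and 275 CPM). GREM1, a BMP antagonist of cumulus cells, read 32.8 and 25.3 CPM in IVM MII, against 4.83 and 3.19 CPM in IVO MII (log2 fold change 2.86 ± 0.35, adjusted p = 1.97e-04), and RUNX2 8.03 and 7.13 against 1.89 and 1.94 CPM (log2 fold change 1.98 ± 0.34, adjusted p = 0.00184). TNFAIP6, of the cumulus matrix, read 23.7 and 32.2 against 13.4 and 13.9 CPM (log2 fold change 1.03 ± 0.25, adjusted p = 0.0117), and its call ended without IVM MII-2 (0.80, adjusted p = 0.1). HAS2, which makes the hyaluronan of that matrix, read 20.3 and 17.1 against 12.7 and 31.6 CPM and did not pass. Of the 7 markers tested 3 (42.9%) were higher and 0 lower, against 14.3% and 10.3% of all genes. The fold changes went both ways, with a lowest log2 value of -2.74. CYP19A1 was not called in the full fit, but it passed as lower without IVO MII-2 (log2 fold change -3.54). Theca, stroma and endothelium markers summed to 164 and 156 CPM in IVM MII, against 95.6 and 90.9 CPM in IVO MII, the largest part of it VWF (105 and 102 against 41.8 and 46.00 CPM; log2 fold change 1.23 ± 0.21, adjusted p = 0.00185), which was higher still in GV, at 288 and 337 CPM. Of these 12 markers 8 were below 1 CPM in all MII libraries. Of the 6 tested, 1 was higher (VWF) and 1 lower (OGN), or 16.7% each, against 14.3% and 10.3% of all genes. The call of OGN ended with library totals (log2 fold change -0.73, adjusted p = 0.101) and with the 4 MII libraries alone (-0.92, adjusted p = 0.0525). It also ended without GV-1, GV-2, IVM MII-1, IVM MII-2 or IVO MII-1, at log2 fold changes from -0.99 to -0.80. Blood and immune markers summed to 7.27 and 6.96 against 7.42 and 4.45 CPM, with 10 of 12 below 1 CPM. Of the 3 tested, 1 (33.3%, against 14.3% of all genes) was called higher and 0 lower, and 0 calls were stable. The part of RNA from other cells in the differences between the MII groups was not tested.

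Fold changes moved with gene length. The median exon length was 2331 bases for higher genes, 3491 bases for lower genes and 2974 bases for all genes tested. In the fifth of genes with the shortest exons (152 to 1442 bases) 19.9% were higher and 8.03% lower, with a median log2 fold change of 0.25. In the fifth with the longest exons (5743 to 115326 bases) 9.71% were higher and 12.1% lower, with a median of -0.12. Many members of the lists that were mostly higher are short, with median exon lengths of 957 bases for complex I and 1255 bases for the mitochondrial ribosome, and with the length trend removed their higher counts were 16 and 19. RNA integrity was not measured. By kind of gene, 13.5% of protein-coding genes were higher and 10.8% lower, and 16.1% and 9.15% of long non-coding RNA genes. By chromosome, the share called ran from 18.2% on chromosome 19 to 32.8% on chromosome 18.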

How the data were processed

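RNA of stripped cynomolgus oocytes was sequenced in 6 libraries, 2 each of GV, IVM MII and IVO MII. Per the labels' protocols, cDNA was primed on poly(A), extended by template switching, amplified, tagmented and read from both ends on DNBSEQ. Per the submitters' processing notes, Bowtie2 and featureCounts were used, with fastp, FastQC and SAMtools. The deposited values are raw read counts per gene, and per the file headers featureCounts 2.0.1 counted them over exons of RefSeq genes on macFas5 without a strand option. The sources used here name no molecular identifiers and no added RNA standards, and an aligner that does not split reads can lose reads over exon junctions or place them in processed pseudogenes.

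Of 28164 genes, 15815 passed filterByExpr and 12349 did not. Of 11294 genes with only a LOC identifier, 721 took a symbol from a RefSeq gene table, used for names alone. edgeR 4.0.16 (R 4.3.3) fitted its robust quasi-likelihood model to all 6 libraries (TMM factors 0.903 to 1.22, biological coefficient of variation 0.232, 3 residual degrees of freedom), and the contrast IVM MII minus IVO MII was tested two-sided with Benjamini-Hochberg adjustment over all genes at 0.05. Library totals ran from 27707021 to 35515139; 3 counts, the limit for a gene without a count, equal 0.0695 to 0.116 CPM, which covers counting error only. Leading genes needed a stable call (log2 fold change within 0.58 of the full fit without each library, and called with RLE factors and library totals), 100 CPM in the higher group and a symbol; list genes were the up to 3 stable calls per direction by adjusted p with 5 CPM, genes of each placement needed 50 CPM, and all landmark and marker genes could be named. Called genes with at least 1000 CPM were added after their values were seen. The comparison, the 58 gene lists and the naming rule were chosen with earlier results of these data known. Alternatives were DESeq2 1.42.0, limma-voom (limma 3.58.1), other scalings, filters and subsets, the replicate block and removal of the length trend; the procedure was tested on simulated data, and figures were drawn with matplotlib 3.10.9.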

Additional observations from a re-analysis of the deposited data

How the results depend on the processing

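Both counts kept within 1.5 times of 2260 higher and 1635 lower genes with edgeR without robust dispersions, RLE factors, no low-count filter, DESeq2, limma-voom, the 4 MII libraries alone, the replicate block and the length trend removed. The strict filter of 10 CPM in 2 libraries, which tested 8048 genes, gave 1588 and 1051. With library totals the lower genes numbered 894. Leaving out each library in turn gave 1327 to 2094 higher and 753 to 1496 lower genes. A group then has 1 library, which is assumed to vary like the others. Of the called genes 0 reversed in any of these fits.

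The replicate number as a block gave 2180 higher and 1545 lower genes. The labels do not link replicates of the same number, and the correlation of their deviations between IVM MII and IVO MII was -0.11. In fits to the 4 MII libraries alone, added after seeing the data, the block gave 1534 higher and 884 lower genes, and crossed numbers gave 2955 and 2294.

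Of the 58 lists, the lower count moved by over 1.5 times in 43 without IVM MII-2, in 38 without IVM MII-1 and in 39 with library totals, and the higher count in 28, 12 and 11. Of 280 genes tested by name, 28 calls ended without IVM MII-2, 25 without IVO MII-1, 21 without IVM MII-1 and 16 without IVO MII-2, and 9 with library totals. The cause of these changes was not tested. With 2 libraries per group, a gene that misses the threshold may still differ.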

Other observations

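Genes of the oocyte surface were called near the background rate. Of ion channels 27.8% were called and of amino acid transporters 19.4%, against 24.6% of all genes. Of zinc transporters 23.8% were called and of adhesion and extracellular matrix genes 22.5%. Of 97 ion channel genes tested, 15 were higher and 12 (7 without IVM MII-2) lower (13 and 13 with RLE factors) in IVM MII. KCNN2, a calcium-activated potassium channel, read 263 and 374 CPM in IVM MII, against 116 and 107 CPM in IVO MII (log2 fold change 1.52 ± 0.24, adjusted p = 0.00102), and KCNJ15, an inward rectifier, 28.9 and 31.9 against 10.9 and 13.7 CPM (log2 fold change 1.30 ± 0.24, adjusted p = 0.00263). The lower channels included TRPV4, a calcium channel, at 9.89 and 7.502 against 22.8 and 30.03 CPM (log2 fold change -1.60 ± 0.24, adjusted p = 8.28e-04), and the calcium-activated anoctamins ANO1 and ANO6, at 11.4 and 10.5 against 33.9 and 40.2 CPM and 112 and 102 against 227 and 234 CPM. TRPV4 read 94.9 and 94.9 CPM in GV, so both MII groups lay below it and culture lay furthest. Amino acid transporters had 3 higher and 4 (1 without IVM MII-2) lower of 36 (4 and 1 with library totals). SLC38A11 read 23.2 and 23.6 against 4.44 and 5.16 CPM (log2 fold change 2.28 ± 0.23, adjusted p = 7.34e-05), and the cationic amino acid transporter SLC7A2 1.898 and 1.05 against 6.73 and 6.05 CPM (log2 fold change -2.10 ± 0.37, adjusted p = 0.0019). Of 21 zinc transporters, which load the zinc released as sparks at egg activation, 3 (1 without IVO MII-1) were higher and 2 (1 without GV-1, GV-2, IVM MII-1 or IVO MII-2, 0 without IVM MII-2 or IVO MII-1) lower, with SLC30A5 at 15.1 and 13.4 against 5.72 and 6.96 CPM. Adhesion and extracellular matrix genes had 13 (8 without IVM MII-1, 5 without IVM MII-2) higher and 10 (6 without IVM MII-1, 5 without IVM MII-2) lower of 102 (12 and 12 with RLE factors or the length trend removed). ADAM19, a membrane metalloprotease, read 28.9 and 27.2 CPM in GV, 94.3 and 98.01 in IVM MII oocytes and 24.4 and 29.3 in IVO MII (log2 fold change 1.84 ± 0.22, adjusted p = 1.75e-04).

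The ZNF zinc finger genes, mostly transcriptional repressors, had 33 (16 without IVM MII-2, 21 without IVO MII-1) higher and 43 (18 without IVM MII-1, 19 without IVM MII-2, 24 without IVO MII-1) lower of 354 (44 and 23 with library totals), with a median of -0.13 (0.08 with library totals); many are close copies. Of the ZNF genes 9.32% were higher and 12.1% lower, against 14.3% and 10.3% of all genes. Besides ZNF746, ZNF684 read 49.6 and 78.9 against 15.8 and 13.3 CPM (log2 fold change 2.14 ± 0.27, adjusted p = 2.48e-04) and ZNF549 96.1 and 118 against 235 and 310.4 CPM (log2 fold change -1.35 ± 0.23, adjusted p = 0.00172). Phosphatase genes had 10 (5 without IVM MII-1, 4 without IVM MII-2 or IVO MII-1) higher and 12 (7 without IVM MII-1, 5 without IVM MII-2) lower of 84 (11 and 6 with library totals). PPP1R7, a regulator of protein phosphatase 1, read 7.13 and 6.48 against 22.96 and 23.4 CPM (log2 fold change -1.77 ± 0.23, adjusted p = 3.64e-04), and the phosphatase PPM1B 83.5 and 85.1 against 260.3 and 231 CPM (log2 fold change -1.54 ± 0.24, adjusted p = 8.80e-04). PPM1B, at 74.8 and 52.02 CPM in GV, was high in vivo alone, whereas PPP1R7, at 34.9 and 30.2 CPM in GV, was low in culture. DEAD and DEAH box helicases, which remodel RNA, had 4 (2 without IVM MII-1) higher and 9 (4 without IVM MII-1, 3 without IVM MII-2) lower of 50 (4 and 4 with library totals); DDX1 read 55.4 and 56.1 against 25.9 and 21.8 CPM (log2 fold change 1.22 ± 0.22, adjusted p = 0.002) and the nucleolar DDX21 2.15 and 2.501 against 8.62 and 6.22 CPM (log2 fold change -1.67 ± 0.33, adjusted p = 0.004). Histones and their chaperones had 8 (3 without IVM MII-2, 4 without IVO MII-1) higher and 7 (4 without GV-1 or GV-2, 2 without IVM MII-1, 1 without IVM MII-2, 3 without IVO MII-1) lower of 41 (7 and 8 with RLE factors, 4 and 8 with the length trend removed), with the acetyltransferase HAT1 at 32.2 and 49.8 against 17.7 and 16.9 CPM (log2 fold change 1.24 ± 0.25, adjusted p = 0.00422).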
